A study of Homo sapiens with 8 samples.

Results

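The nuclear-encoded subunits of respiratory complexes III and IV and of ATP synthase were followed in HaCaT, a human epidermal keratinocyte line that grows without limit in culture. The members were taken by gene symbol: names starting with UQCR and the gene CYC1 for complex III, names starting with COX4, COX5, COX6, COX7 or COX8 for complex IV, and names starting with ATP5 for ATP synthase, without hyphenated names. This gave 46 of the 24252 rows in each table: 10 for complex III, 17 for complex IV and 19 for ATP synthase. RNA was sequenced from 4 libraries labelled Control, for which no treatment is given, and 4 labelled OGD-R, from cells put through oxygen and glucose deprivation followed by reoxygenation and sampled at an early stage. The sources used here do not give how long each step lasted, and no label names another agent. The labels do not say whether libraries of a group came from separate cultures. Every p-value here sets a difference against the spread among these libraries, and that spread may be technical.

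These complexes form the end of the mitochondrial respiratory chain. Complex III, the cytochrome bc1 complex, passes electrons from ubiquinol to cytochrome c, complex IV, cytochrome c oxidase, hands them to oxygen, and both steps build a proton gradient that ATP synthase uses to make ATP. Each complex mixes many subunits encoded in the nucleus with a few encoded in the mitochondrial genome. In low oxygen, cells are known to change some of these subunits, for example by exchanging isoforms of COX4, the largest nuclear subunit of complex IV.

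The values were read as FPKM, fragments scaled by transcript length and library size, which is a level per length. They summed to between 428984 and 475385 FPKM per library, and a single fragment over 1000 bases of transcript stood for between 0.0401 and 0.0592 FPKM if the commonest spacing of the lowest values is 1 fragment. All 10 keratinocyte markers examined, among them KRT5, KRT14 and TP63, were at 39.7 FPKM or more in every library. Summed markers of fibroblasts, melanocytes, endothelium and muscle reached at most 8.72 FPKM in any library, with 1 gene of each of fibroblasts (COL1A1) and muscle (TNNT2) reaching 1 FPKM, and the 5 immune markers summed to between 12.5 and 16.9 FPKM in Control and between 3.28 and 4.01 FPKM in OGD-R, with CD68, a lysosomal protein that epithelial cells also make, as the only one to reach 1 FPKM. Their part in the results was not tested. The 4 OGD-R libraries were alike (Pearson r across genes of at least 0.992 in log2 values), whereas Controls 1 and 2 differed from Controls 3 and 4 (r between 0.874 and 0.881). The main results are therefore given with all 4 Controls and beside each of these pairs. The pairs were set apart by their own values. Each p-value against 1 pair leaves out the spread between the pairs, so it is a description and no support for a difference.

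Subunit mRNA was somewhat more abundant in OGD-R than in the mean Control, and the size of this difference depended on which Controls were used. The 46 members together made up 4238, 4056, 2591 and 2282 FPKM in Controls 1 to 4 and 4128, 4427, 4249 and 4239 FPKM in OGD-R 1 to 4. Controls 3 and 4 were thus far below the other 6 libraries, and Controls 1 and 2 were close to the OGD-R range, one above and one below its lowest library. In bulk RNA such as this, fewer cells of a type and less RNA per cell cannot be told apart. The 7 members under a mean of 1 FPKM, the complex IV isoforms COX4I2, COX6A2, COX6B2, COX7A1, COX7B2 and COX8C and the copy ATP5MGL, were not tested. Of the other 39, 6 rose and 0 fell in limma's test on log2(FPKM + 1) at a Benjamini-Hochberg adjusted p of 0.05. These are 15.4% of the members, where 19.9% of all 11740 genes tested were called, 10.2% higher and 9.69% lower. OGD-R lay wholly above Control in 7 members, and below it in 0, against 15.2% and 14.8% of all genes. The higher counts are near the background, and the lower counts of 0 are below it; nothing particular to the members is read from either. The fitted difference was above 0 in 38 of the 39 and in 6086 of all 11740 genes. The median log2 fold change of the members was 0.40, against 0.018 over all genes.

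Controls 3 and 4 set the size of this difference. They were the 2 lowest of the 8 libraries for 36 of the 39 members, or 92.3%, and for 33.3% of all genes tested; this is a description, since the Controls were set apart by their own values. The exceptions were COX7A2L, ATP5F1A and ATP5ME. The pattern was not limited to the members. Controls 3 and 4 were also the 2 lowest for 5 of 6 complex III assembly factors, 17 of 30 for complex IV and 5 of 6 for ATP synthase. They were so for 5 of 6 mitochondrially encoded subunits of these complexes and for 5 of 12 tested regulators of respiratory genes. The members are short, with a median transcript of 1098 bases in GENCODE 29 against 3096 for all genes tested with a length. Length here is that of the longest transcript marked as principal, or of the longest of all where none is marked. It may exceed that of the mRNA present, for example in UQCRB (5575 bases) and ATP5F1E (3665 bases), so the length classes are approximate. The share of genes lowest in these Controls varied with length. Among other genes Controls 3 and 4 were the 2 lowest in 37.7% of those up to 700 bases, 44.5% of those over 700 and up to 1500, 36.2% of those over 1500 and up to 3000 and 28.9% of longer ones. Among members the counts in the same classes were 8 of 9, 15 of 15, 8 of 8 and 5 of 7. The part of transcript length in the difference was not tested. Fitted against Controls 3 and 4, 36 members were higher in OGD-R and 0 lower (background 39.2% higher and 28.4% lower), with a median log2 fold change of 0.81. Fitted against Controls 1 and 2, 5 were higher and 7 lower (background 22.8% and 32.4%), with a median of -0.016. The fitted difference was above 0 in 38 of the 39 members against Controls 3 and 4 and in 18 of the 39 against Controls 1 and 2. Of all 11740 genes, 6624 and 5213 were above 0 in the same fits, with medians of 0.093 and -0.055. The mitochondrial share of the summed FPKM was 20.2% ± 1.94 in Control and 27.9% ± 1.02 in OGD-R (SD, n = 4 each). Rescaled to the sum of nuclear genes alone, 11 members were higher and 0 lower, and the calls over all genes moved from 1202 higher and 1138 lower to 1600 higher and 871 lower.

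**Figure D1:**
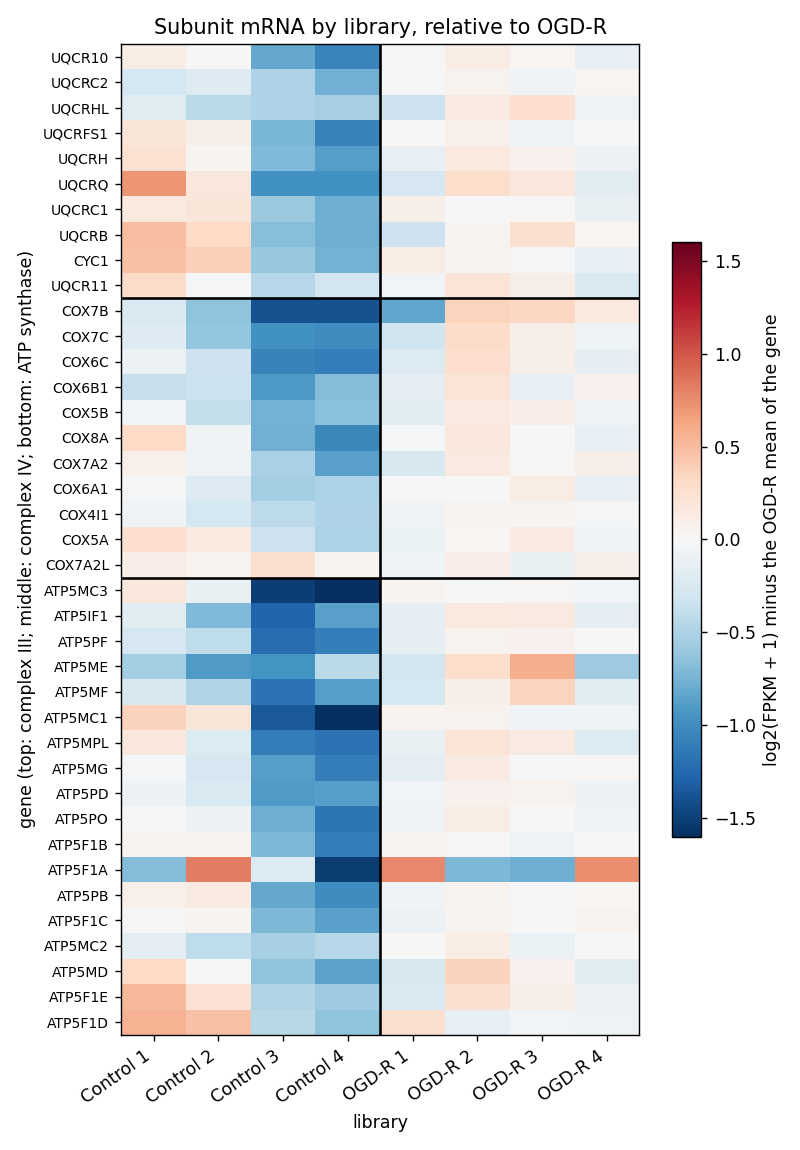
Each row is 1 of the 39 tested subunit genes and each column 1 library; colour is log2(FPKM + 1) minus the mean of the 4 OGD-R libraries for that gene, with complex III, complex IV and ATP synthase separated by lines. The columns of Controls 3 and 4 are blue in nearly all rows, Controls 1 and 2 are mixed, and ATP5F1A alternates between high and low inside both groups.

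Promoters of these genes often carry binding motifs of NRF1 and of ETS family factors such as GABP, which are known regulators of respiratory genes. To show where such motifs sit, the 250 bases before the start site are printed for 1 member that rose in each complex and for ATP5F1A, whose level was the least steady. The sequences are from RefSeq (GRCh38.p14), 5′ to 3′ on the strand of the gene, with RefSeq start sites, which differ from the GENCODE gene ends given with the genes, and capitals mark matches to an NRF1 motif (GCGCA, any base, then GCGC), an ETS motif (CCGGAAG) or a YY1 motif (ATGGCGG) on either strand.
UQCRC2, chr16:21953111-21953360, plus strand: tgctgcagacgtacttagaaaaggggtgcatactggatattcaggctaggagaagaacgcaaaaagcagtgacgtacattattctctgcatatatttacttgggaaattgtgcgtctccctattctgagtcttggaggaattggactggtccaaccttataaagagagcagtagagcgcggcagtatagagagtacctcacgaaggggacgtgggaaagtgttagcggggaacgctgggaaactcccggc
COX6B1, chr19:35648073-35648322, plus strand: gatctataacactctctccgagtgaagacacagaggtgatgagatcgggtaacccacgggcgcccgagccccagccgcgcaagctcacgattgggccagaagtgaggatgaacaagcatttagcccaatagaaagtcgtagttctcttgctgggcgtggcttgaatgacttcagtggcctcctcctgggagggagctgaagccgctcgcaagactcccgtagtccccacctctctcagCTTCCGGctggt
ATP5PF, chr21:25734905-25735154, minus strand: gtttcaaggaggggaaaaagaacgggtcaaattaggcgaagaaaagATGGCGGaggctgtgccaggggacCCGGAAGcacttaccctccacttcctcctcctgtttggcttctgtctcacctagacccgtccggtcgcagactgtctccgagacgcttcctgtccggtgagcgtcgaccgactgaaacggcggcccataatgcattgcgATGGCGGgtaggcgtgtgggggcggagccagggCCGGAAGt
ATP5F1A, chr18:46098297-46098546, minus strand: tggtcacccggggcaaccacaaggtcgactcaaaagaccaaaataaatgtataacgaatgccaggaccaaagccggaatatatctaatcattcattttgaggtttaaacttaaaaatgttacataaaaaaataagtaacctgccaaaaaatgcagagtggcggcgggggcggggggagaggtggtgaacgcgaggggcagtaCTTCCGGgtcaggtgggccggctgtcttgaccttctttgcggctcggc

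Of the 4, ATP5PF held 2 ETS and 2 YY1 matches, COX6B1 and ATP5F1A held 1 ETS match each and UQCRC2 held none. A RefSeq promoter window of 300 bases, from 250 before to 50 after the start, was found for 35 of the 46 members. An NRF1 match was in 9 of the 35 (25.7%), against 6.05% of all 27305 windows and 11.9% of the 8862 windows of tested genes. An ETS match was in 14 (40.0%), against 10.6% and 20.9%, and a YY1 match in 4 (11.4%), against 5.68% and 11.4%. A stricter form of each motif was also counted in these windows. The NRF1 form with its free base fixed was in 1 of the 35 (2.86%), against 1.31% and 2.34%. A longer ETS form was in 2 (5.71%), against 2.26% and 4.6%, and a longer YY1 form in 1 (2.86%), against 0.919% and 2.27%. Counts this small cannot show whether the members exceed tested genes in the stricter forms. Both strands were searched, a palindromic match was counted once, and matches of different motifs or strands may overlap. A match is a run of letters and not a measured site.

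In complex III, 1 of 10 members rose and 0 fell, with a median log2 fold change of 0.30. UQCRC2, core protein 2 of the complex (ENSG00000140740, chromosome 16, 21952660 to 21983660, plus strand, GRCh38 in GENCODE 29), was at 91.8, 96.8, 79.2 and 65.2 FPKM across Controls 1 to 4 and 109.6, 115, 107 and 114 FPKM across OGD-R 1 to 4. Every OGD-R library was above every Control, with Control 4 the lowest of all. The means were 112 ± 3.82 FPKM for OGD-R and 83.2 ± 14.1 FPKM for Control (SD, n = 4 each), a log2 fold change of 0.43 with an SE of 0.13 (limma adjusted p = 0.0491). The difference was 0.24 against Controls 1 and 2 (limma adjusted p = 0.00696) and 0.63 against Controls 3 and 4 (limma adjusted p = 1.27e-04). With all Controls the call was lost in each of the 4 fits that left out 1 OGD-R library and in those without Control 3 or Control 4.

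Its partner UQCRC1, core protein 1, did not pass the test. It was at 100.3, 103, 59.3 and 51.8 FPKM across Controls 1 to 4 and 95.9, 89.7, 91.1 and 82.9 FPKM across OGD-R 1 to 4, so that OGD-R lay between the Control pairs. CYC1, cytochrome c1, one of the electron carriers of the complex, followed the same order and was at 115, 108, 54.2 and 48.6 FPKM across Controls 1 to 4 and 89.8, 85.8, 81.6 and 75.4 FPKM across OGD-R 1 to 4. It was lower in OGD-R by fit against Controls 1 and 2 (log2 fold change -0.42, limma adjusted p = 0.00133) and higher against Controls 3 and 4 (0.68, limma adjusted p = 7.31e-05). UQCRFS1, the Rieske iron-sulfur protein, was at 36.1 ± 1.73 FPKM for OGD-R and 29.6 ± 12.4 FPKM for Control (SD, n = 4 each) and was not called (limma adjusted p = 0.375).

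The most abundant nuclear-encoded mRNA of complex III was UQCRH, the acidic hinge protein that helps cytochrome c1 meet cytochrome c. It was at 151, 131, 77.5 and 68.5 FPKM across Controls 1 to 4 and 116, 142, 133 and 119 FPKM across OGD-R 1 to 4 (limma adjusted p = 0.399). UQCRHL, an intronless copy of UQCRH, was at 1.43, 1.05, 0.978 and 0.917 FPKM across Controls 1 to 4 and 1.20, 2.07, 2.35 and 1.62 FPKM across OGD-R 1 to 4. UQCRHL made up between 0.798% and 1.74% of the pair, and as the copies are nearly identical, how reads were divided between them is uncertain. The small subunits UQCR10, UQCR11, UQCRB and UQCRQ had log2 fold changes of 0.44, 0.12, 0.16 and 0.26, with limma adjusted p between 0.274 and 0.746. UQCRB was lower in OGD-R than in Controls 1 and 2 (-0.41, limma adjusted p = 0.0312). UQCRQ was at 58.9, 40.7, 17.9 and 17.8 FPKM in the Controls, a wide spread within 1 group.

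In complex IV, 2 of 11 tested members rose and 0 fell, with a median log2 fold change of 0.38. The increases were in COX6B1 and COX7C. COX6B1, which lies on the intermembrane face of the enzyme (ENSG00000126267, chromosome 19, 35648223 to 35658861, plus strand), was at 76.8, 78.5, 52.05 and 61.2 FPKM across Controls 1 to 4 and 89.97, 115, 90.4 and 105 FPKM across OGD-R 1 to 4. All OGD-R libraries were above all Controls, and here Controls 1 and 2 were also below OGD-R. The means were 100.1 ± 12.2 FPKM for OGD-R and 67.1 ± 12.7 FPKM for Control (SD, n = 4 each), a log2 fold change of 0.58 with an SE of 0.16 (limma adjusted p = 0.0333), the smallest p of the 39 members. The log2 fold change was 0.35 against Controls 1 and 2 (limma adjusted p = 0.014) and 0.81 against Controls 3 and 4 (limma adjusted p = 1.72e-04). The call was lost without any 1 OGD-R library and without Control 3 or Control 4, where the limma adjusted p lay between 0.0618 and 0.101.

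COX7C, a small membrane subunit (ENSG00000127184, chromosome 5, 86617904 to 86620962, plus strand), was at 105, 78.6, 61.1 and 60.5 FPKM across Controls 1 to 4 and 97.1, 149, 129 and 115 FPKM across OGD-R 1 to 4. OGD-R 1 was below Control 1, so the groups overlapped although the test called it, from a log2 fold change of 0.70 with an SE of 0.20 (limma adjusted p = 0.0469). Its log2 fold change was 0.41 against Controls 1 and 2 (limma adjusted p = 0.0555), and of the 8 fits without 1 library only that without Control 1 kept the call. COX7B, another small membrane subunit, had the largest fitted difference of the 39 members, 0.92, and was not called (limma adjusted p = 0.103). Its levels were 152, 114, 67.8 and 67.98 FPKM across Controls 1 to 4 and 100.4, 229, 226 and 199 FPKM across OGD-R 1 to 4, so OGD-R 1 stood at the level of the Controls while OGD-R 2 to 4 were above all of them. COX6C was at 68.95, 57.9, 34.5 and 33.9 FPKM across Controls 1 to 4 and 63.1, 88.3, 78.6 and 66.4 FPKM across OGD-R 1 to 4 (limma adjusted p = 0.104) and COX5B, the zinc-binding subunit, at 72.9, 57.7, 44.2 and 46.7 FPKM across Controls 1 to 4 and 65.98, 83.1, 80.7 and 72.2 FPKM across OGD-R 1 to 4 (limma adjusted p = 0.0883). In both genes OGD-R 1 was below Control 1.

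COX4I1, the ubiquitous COX4 isoform and the most abundant nuclear-encoded mRNA of complex IV, was at 455, 390.1, 356 and 337 FPKM across Controls 1 to 4 and 456, 488, 490.0 and 465 FPKM across OGD-R 1 to 4. OGD-R lay above Control throughout, but Control 1 was close to OGD-R 1, and the log2 fold change of 0.31 with an SE of 0.11 (limma adjusted p = 0.0731) did not reach the threshold. COX4I2, the isoform known to be induced by low oxygen in lung and other cells, was listed at 0 in all 8 libraries. COX6A2, the heart and muscle form of COX6A, and COX7B2, a testis form, were likewise listed at 0 throughout. COX7A1, the muscle form of COX7A, reached at most 0.158 FPKM, and COX8C, a testis form, was listed at 0 in 7 libraries and at 0.148 FPKM in OGD-R 3. COX6B2, the testis form of COX6B, was at 0.0714, 0.142, 0.606 and 1.39 FPKM across Controls 1 to 4 and 0.467, 0.531, 0.413 and 0.801 FPKM across OGD-R 1 to 4; it was at most 2.21% of its pair with COX6B1 in every library and below the limit for testing. The ubiquitous isoform held nearly all of the signal of each pair in both groups.

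The ubiquitous forms COX6A1, COX7A2 and COX8A did not pass the test. COX6A1 was at 214, 188, 147 and 152 FPKM across Controls 1 to 4 and 218, 218, 236 and 197 FPKM across OGD-R 1 to 4 (limma adjusted p = 0.138). COX7A2 and COX8A had log2 fold changes of 0.35 and 0.38 (limma adjusted p = 0.286 and 0.372). COX5A, a matrix-side subunit, was lower in OGD-R than in Controls 1 and 2 (-0.21, limma adjusted p = 0.0374) and higher than in Controls 3 and 4 (0.42, limma adjusted p = 0.00151). COX7A2L, a COX7A relative that links complexes III and IV into supercomplexes, was the member whose difference was below 0. It was at 45.02, 43.3, 49.9 and 42.96 FPKM across Controls 1 to 4 and 39.6, 44.7, 38.1 and 44.4 FPKM across OGD-R 1 to 4. All 8 libraries lay within a narrow range (log2 fold change -0.12 ± 0.093, SE; limma adjusted p = 0.412), and Control 3 was the highest of them.

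**Figure D2:**
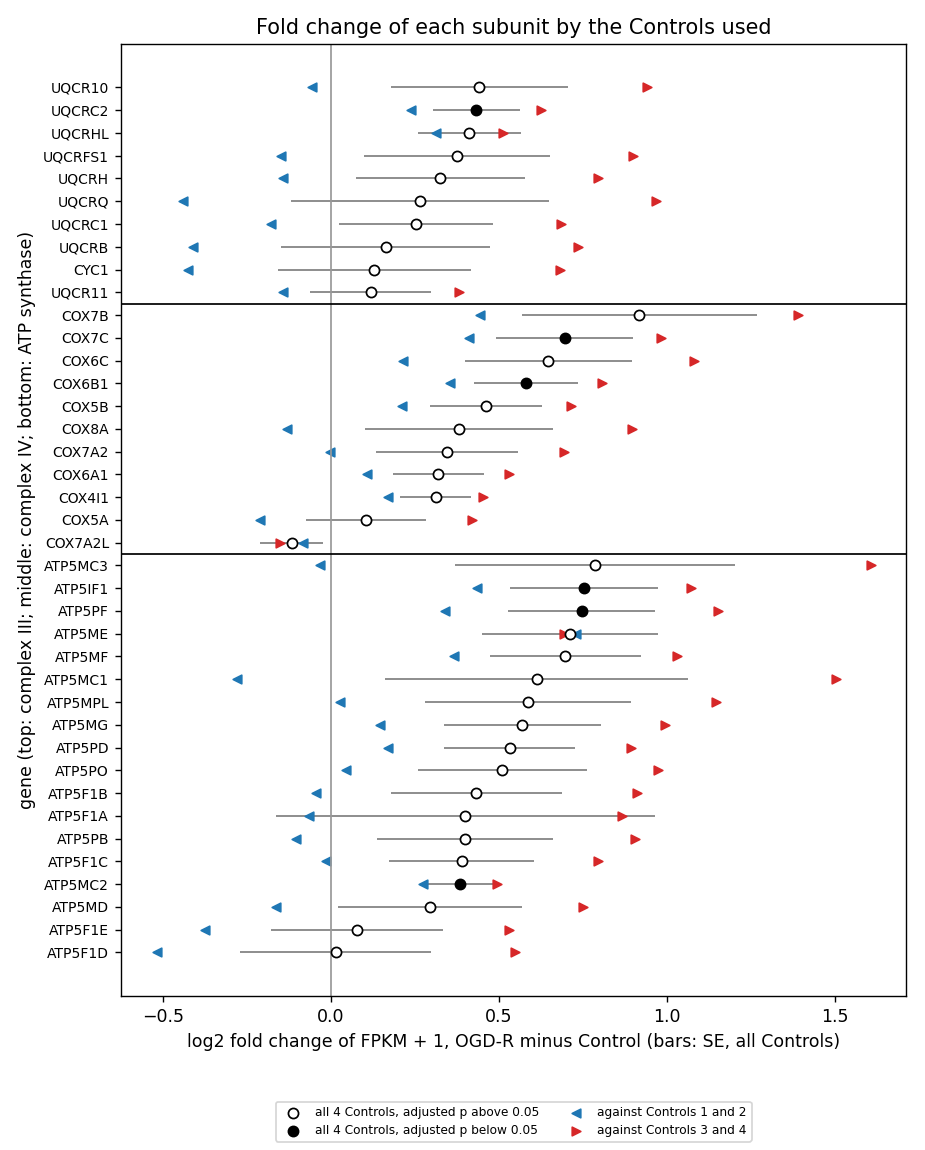
Circles give the log2 fold change of FPKM + 1 (OGD-R minus Control) of each tested gene with all 4 Controls, with SE as bars, filled where the limma adjusted p was below 0.05; triangles give the same against Controls 1 and 2 and against Controls 3 and 4. The 6 filled circles lie between 0.38 and 0.75, the right-hand triangles are above 0 in 38 of 39 genes, and the left-hand triangles fall on both sides of 0.

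In ATP synthase, 3 of 18 tested members rose and 0 fell, with a median log2 fold change of 0.52. They were ATP5PF, ATP5IF1 and ATP5MC2. ATP5PF, coupling factor 6 of the peripheral stalk (ENSG00000154723, chromosome 21, 25716503 to 25735673, minus strand), was at 48.8, 44.3, 24.95 and 27.2 FPKM across Controls 1 to 4 and 53.6, 61.6, 62.3 and 59.6 FPKM across OGD-R 1 to 4. Every OGD-R library was above every Control, and Controls 3 and 4 were lowest. The means were 59.3 ± 3.98 FPKM for OGD-R and 36.3 ± 11.98 FPKM for Control (SD, n = 4 each), a log2 fold change of 0.75 with an SE of 0.22 (limma adjusted p = 0.046). It was higher against each pair of Controls, by 0.34 (limma adjusted p = 0.0046) and 1.15 (limma adjusted p = 1.50e-06). Without any 1 OGD-R library, or without Control 3 or Control 4, the limma adjusted p with all other libraries lay between 0.086 and 0.118. The other stalk subunits ATP5PB, ATP5PD and ATP5PO did not pass the test, with log2 fold changes of 0.40, 0.53 and 0.51. ATP5PD, subunit d, was above Control in every OGD-R library, at 161, 145, 91.2 and 93.6 FPKM across Controls 1 to 4 and 168, 181, 179.8 and 162 FPKM across OGD-R 1 to 4 (limma adjusted p = 0.0926).

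ATP5IF1 encodes the inhibitor that stops ATP synthase from running backwards and consuming ATP when respiration fails (ENSG00000130770, chromosome 1, 28236109 to 28246906, plus strand). It was at 48.1, 32.7, 21.8 and 29.01 FPKM across Controls 1 to 4 and 48.6, 60.1, 59.5 and 48.8 FPKM across OGD-R 1 to 4. The groups did not overlap, but Control 1 and OGD-R 1 were nearly equal. The means were 54.3 ± 6.42 FPKM for OGD-R and 32.9 ± 11.1 FPKM for Control (SD, n = 4 each), a log2 fold change of 0.75 with an SE of 0.22 (limma adjusted p = 0.046). Its log2 fold change was 0.43 against Controls 1 and 2 (limma adjusted p = 0.0324) and 1.07 against Controls 3 and 4 (limma adjusted p = 6.62e-05). The call was lost without any 1 OGD-R library (limma adjusted p between 0.0851 and 0.124) and without Control 2, 3 or 4.

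The membrane ring of subunit c is encoded by ATP5MC1, ATP5MC2 and ATP5MC3, which give the same mature protein from precursors with different import signals. Only ATP5MC2 passed the test of these 3 genes. It (ENSG00000135390, chromosome 12, 53632726 to 53677408, minus strand) was at 88.2, 73.4, 67.2 and 70.7 FPKM across Controls 1 to 4 and 97.4, 106, 90.7 and 96.7 FPKM across OGD-R 1 to 4, with Controls 3 and 4 close to Control 2. The means were 97.6 ± 6.14 FPKM for OGD-R and 74.9 ± 9.27 FPKM for Control (SD, n = 4 each), a log2 fold change of 0.38 with an SE of 0.11 (limma adjusted p = 0.0379), and the call was lost without any 1 OGD-R library and without Control 2, 3 or 4. Against Controls 1 and 2 the log2 fold change was 0.27 (limma adjusted p = 0.0235), and against Controls 3 and 4 it was 0.49 (limma adjusted p = 2.59e-04). ATP5MC1 was at 129, 115, 38.7 and 30.99 FPKM across Controls 1 to 4 and 104, 104, 96.3 and 96.1 FPKM across OGD-R 1 to 4 (limma adjusted p = 0.375). ATP5MC3 was at 43.4, 34.9, 12.7 and 10.95 FPKM across Controls 1 to 4 and 39.1, 37.8, 38.5 and 36.7 FPKM across OGD-R 1 to 4 (limma adjusted p = 0.221). ATP5MC1 was lower in OGD-R than in Controls 1 and 2 (-0.28, limma adjusted p = 0.00773) and higher than in Controls 3 and 4 (1.50, limma adjusted p = 6.48e-07).

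The 3 genes thus contributed unequally to subunit c mRNA from library to library. Their sum was 261, 223, 119 and 113 FPKM in Controls 1 to 4 and 241, 247, 225 and 229.6 FPKM in OGD-R 1 to 4. ATP5MC1 made up 49.5, 51.4, 32.6 and 27.5% of it in Controls 1 to 4, and ATP5MC2 made up 33.8, 32.9, 56.6 and 62.8%. In OGD-R, ATP5MC1 held between 41.9% and 43.3% and ATP5MC2 between 40.2% and 42.7%, between the values of the Control pairs. Compared with ATP5MC1 and ATP5MC3, ATP5MC2 varied little over the 8 libraries, from 67.2 to 106 FPKM.

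**Figure D3:**
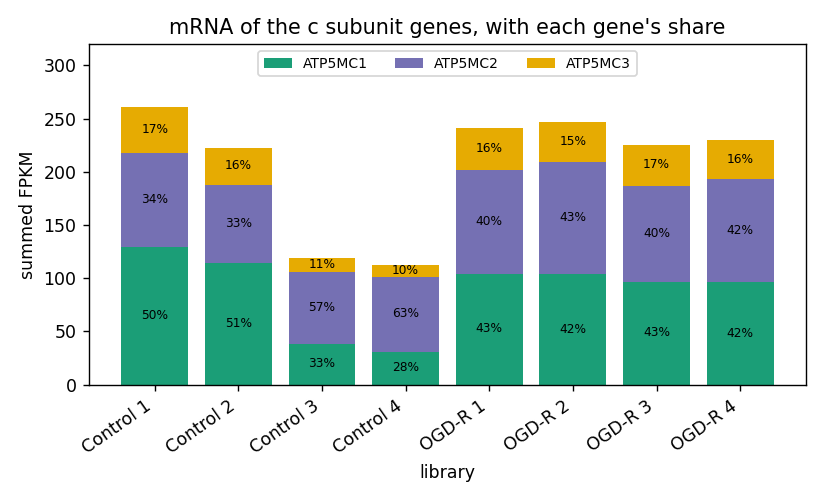
Stacked bars give the FPKM of ATP5MC1, ATP5MC2 and ATP5MC3 in each library, with the share of each gene printed inside. Controls 3 and 4 have the shortest bars (119 and 113 FPKM) and ATP5MC2 takes most of them, while the 4 OGD-R bars are alike.

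The catalytic head of ATP synthase is built from alpha and beta subunits (ATP5F1A and ATP5F1B) around a central stalk of gamma, delta and epsilon (ATP5F1C, ATP5F1D and ATP5F1E). ATP5F1B, the most abundant nuclear-encoded mRNA of ATP synthase, was at 558, 564, 329.8 and 252 FPKM across Controls 1 to 4 and 561, 549.7, 520.2 and 544 FPKM across OGD-R 1 to 4 (limma adjusted p = 0.268). The difference was small against Controls 1 and 2 (log2 fold change -0.045, limma adjusted p = 0.524) and larger against Controls 3 and 4 (0.91, limma adjusted p = 3.80e-05). ATP5F1C ran in near constant ratio to it, between 0.259 and 0.333. ATP5F1D was at 63.7, 59.9, 31.1 and 27.02 FPKM across Controls 1 to 4 and 51.3, 39.1, 41.6 and 40.4 FPKM across OGD-R 1 to 4. It was lower in OGD-R than in Controls 1 and 2 (-0.52, limma adjusted p = 0.00232) and higher than in Controls 3 and 4 (0.55, limma adjusted p = 0.00184), which left 0.015 with all Controls. ATP5F1E had log2 fold changes against the same pairs of -0.37 and 0.53 (limma adjusted p = 0.0436 and 0.00478).

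ATP5F1A did not follow its beta partner. The gene (ENSG00000152234, chromosome 18, 46080248 to 46104334, minus strand) was at 137, 390.0, 190.3 and 76.6 FPKM across Controls 1 to 4 and 376, 134, 128 and 369 FPKM across OGD-R 1 to 4. Within OGD-R, libraries 1 and 4 were high and libraries 2 and 3 low, and within the Controls, library 2 was high and libraries 1 and 4 low, so the jumps ran across the groups and across the Control pairs. Divided by ATP5F1B, it was 0.245, 0.692, 0.577 and 0.304 in Controls 1 to 4 and 0.670, 0.243, 0.246 and 0.680 in OGD-R 1 to 4. These ratios gathered near 2 levels, one from 0.243 to 0.304 in 4 libraries and one from 0.577 to 0.692 in the other 4. The log2 fold change was 0.40 ± 0.56 (SE; limma adjusted p = 0.651), and the SE was the largest of the 39 members.

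The spread of ATP5F1A was unusual for an mRNA at this level. The highest OGD-R library was 2.94 times the lowest, where the median of this ratio was 1.22 over the 38 other tested members and 1.12 over the 1165 genes with an OGD-R mean of at least 50 FPKM. By this ratio ATP5F1A ranked 6 of 1165, and 8 of these genes exceeded 2. The gene was picked with its jumps between libraries already known, so this rank is a description. The genes with the most similar log2 profile over the 8 libraries were ZNF283, VPS54, LRIG3, SIKE1 and TAPT1 (Pearson r from 0.916 to 0.940, chosen as the highest of all genes tested), but their swings were far smaller. VPS54, for example, lay between 5.90 and 7.73 FPKM. HAUS1, the neighbour on the opposite strand that overlaps ATP5F1A by 3 bases, was at 40.4, 39.3, 10.7 and 9.62 FPKM across Controls 1 to 4 and 26.8, 28.2, 27.8 and 28.5 FPKM across OGD-R 1 to 4, without these jumps. GENCODE 29 lists 20 transcripts of ATP5F1A, and the tables give 1 value per gene, so a change of transcript was not tested.

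**Figure D4:**
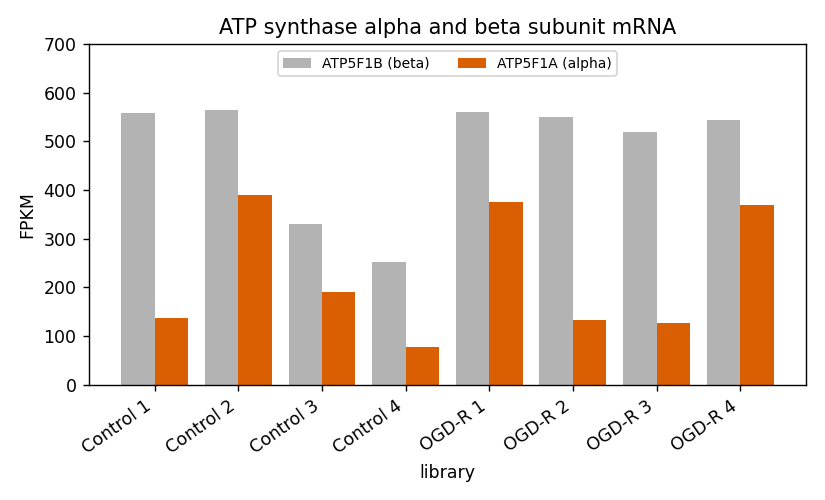
Bars give the FPKM of ATP5F1B (grey) and ATP5F1A (orange) in each library. ATP5F1B is even over OGD-R and over Controls 1 and 2 and lower in Controls 3 and 4, whereas ATP5F1A is high in Control 2, OGD-R 1 and OGD-R 4 and low in Control 1, OGD-R 2 and OGD-R 3.

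The small membrane subunits, some of which help ATP synthase form dimers, did not pass the test. ATP5MF, subunit f, was at 85.3, 72.7, 44.3 and 54.98 FPKM across Controls 1 to 4 and 83.5, 109, 130.0 and 90.5 FPKM across OGD-R 1 to 4 (limma adjusted p = 0.0634); a readthrough gene shares its exons, so the division of reads is uncertain. ATP5MG, subunit g, and ATP5MPL had log2 fold changes of 0.57 and 0.59 (limma adjusted p = 0.124 and 0.217), and ATP5MD of 0.29 (limma adjusted p = 0.485). ATP5ME, subunit e, had the widest OGD-R range after ATP5F1A, at 12.01, 9.12, 8.84 and 13.1 FPKM across Controls 1 to 4 and 14.6, 22.2, 27.6 and 11.7 FPKM across OGD-R 1 to 4 (limma adjusted p = 0.0932). OGD-R 2 and OGD-R 3 were above all other libraries, and OGD-R 4 was below Controls 1 and 4. ATP5MGL, a copy of ATP5MG, was listed at 0 in 6 libraries and reached 0.150 FPKM at most.

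Subunits of the same complexes encoded in mitochondrial DNA were higher in OGD-R. Of these 6 mRNAs, 5 rose and 0 fell (background 10.2% and 9.69%), with a median log2 fold change of 0.49, and the same 5 were higher against each pair of Controls taken alone. With 1 library left out, MT-CO2 and MT-CO3 stayed called in all 8 fits, while MT-CYB was lost without any 1 OGD-R library, MT-CO1 without OGD-R 1, 3 or 4 and MT-ATP6 without OGD-R 1 or 4, which left 2 called without OGD-R 1 or OGD-R 4, 3 without OGD-R 3 and 4 without OGD-R 2. With the replicate number as a block, MT-CYB and MT-CO1 were not called (limma adjusted p = 0.0768 and 0.0640). MT-CO2, MT-CO3 and MT-ATP6 stayed called in that fit (limma adjusted p between 0.0220 and 0.0392). For complex IV, MT-CO1, MT-CO2 and MT-CO3, which form its catalytic core, summed to 35846, 32582, 24709 and 31744 FPKM in Controls 1 to 4 and to 50626, 50154, 54378 and 53741 FPKM in OGD-R 1 to 4. Every OGD-R library was above every Control. The nuclear complex IV members summed to 1621, 1369.6, 1054 and 1005 FPKM and 1469.7, 1811, 1739 and 1612 FPKM in the same libraries, and these ranges overlapped. MT-CO1 alone was at 14056, 13596, 10276 and 12674 FPKM across Controls 1 to 4 and 17634, 16464, 18011 and 17589 FPKM across OGD-R 1 to 4. The ratio of mitochondrial to nuclear sums was 31.7 ± 2.97 in OGD-R and 25.2 ± 4.30 in Control (SD, n = 4 each), and Control 4 was inside the OGD-R range.

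For complex III and ATP synthase the ratios overlapped more widely. MT-CYB, cytochrome b, was 8.06, 8.23, 10.1 and 14.4 times the nuclear complex III sum in Controls 1 to 4 and between 9.91 and 12.2 times in OGD-R. MT-ATP6 and MT-ATP8, which form part of the proton channel, were together 13.1, 11.6, 14.7 and 22.04 times the nuclear ATP synthase sum in Controls 1 to 4 and between 13.6 and 15.5 times in OGD-R. MT-ATP8 was the mitochondrial mRNA that did not pass the test, at 13201, 12658, 8217 and 10089 FPKM across Controls 1 to 4 and 15043, 12955, 13066 and 15968 FPKM across OGD-R 1 to 4 (limma adjusted p = 0.125); its reading frame overlaps that of MT-ATP6 on a shared transcript, so their values are not independent.

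**Figure D5:**
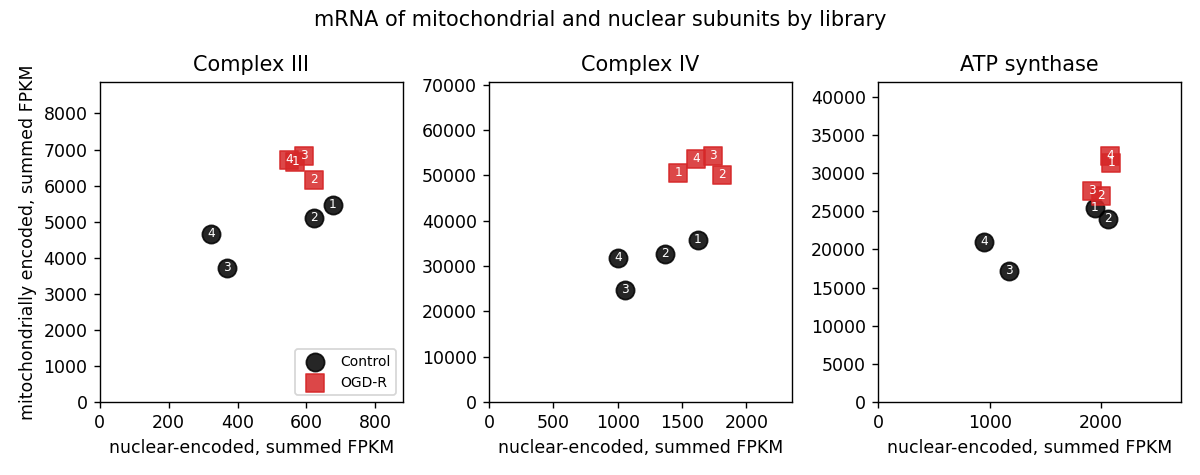
For each complex, summed FPKM of the mitochondrially encoded subunits (vertical axis) is plotted against that of the nuclear-encoded members (horizontal axis); circles are Controls, squares OGD-R, with the replicate number inside. In complex IV the OGD-R libraries lie between 50154 and 54378 on the vertical axis and the Controls between 24709 and 35846, while on the horizontal axis Controls 1 and 2 are near OGD-R and Controls 3 and 4 are to the left.

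Few assembly factors of the 3 complexes passed the test. Of 6 complex III factors and 6 ATP synthase factors 0 rose and 0 fell (limma), and of 30 complex IV factors 1 rose and 0 fell (background 10.2% and 9.69%), with medians of 0.10, 0.26 and 0.071. The increase was in COA5, a cytochrome c oxidase assembly factor, at 7.31, 8.42, 4.91 and 4.37 FPKM across Controls 1 to 4 and 11.4, 12.05, 10.6 and 11.5 FPKM across OGD-R 1 to 4. All OGD-R libraries were above all Controls, giving a log2 fold change of 0.81 with an SE of 0.18 (limma adjusted p = 0.0174); the call was lost in 3 of the 8 fits without 1 library. CYCS, which encodes cytochrome c, the carrier between complexes III and IV, was at 106, 107, 57.2 and 48.7 FPKM across Controls 1 to 4 and 75.8, 86.6, 76.5 and 81.01 FPKM across OGD-R 1 to 4 (limma adjusted p = 0.84), with OGD-R between the Control pairs. NDUFA4, a subunit of complex IV despite its name, was at 48.02 ± 3.06 FPKM for OGD-R and 40.03 ± 18.5 FPKM for Control (SD, n = 4 each) and did not pass the test. Its relative NDUFA4L2, known as a target of hypoxia-inducible factor, was too low to be tested, at 0.598, 0.908, 2.21 and 1.70 FPKM across Controls 1 to 4 and 0.472, 0.111, 0.270 and 0.328 FPKM across OGD-R 1 to 4, lower in every OGD-R library than in every Control.

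Among 13 regulators of respiratory genes, 12 were tested, of which 2 rose and 4 fell (background 10.2% and 9.69%). GABPA, the DNA-binding subunit of GABP, was at 4.75, 6.10, 4.72 and 4.18 FPKM across Controls 1 to 4 and 6.65, 6.77, 6.67 and 6.77 FPKM across OGD-R 1 to 4, giving a log2 fold change of 0.39 with an SE of 0.11 (limma adjusted p = 0.0371). GABPB1, which encodes its activating partner, was at 16.8, 16.6, 23.04 and 22.9 FPKM across Controls 1 to 4 and 12.9, 11.6, 13.1 and 12.3 FPKM across OGD-R 1 to 4 and fell by 0.61 in log2 units (SE 0.13; limma adjusted p = 0.0145). The groups did not overlap in either gene. PPRC1, a coactivator related to PGC-1 alpha, was at 18.1, 19.01, 24.2 and 21.6 FPKM across Controls 1 to 4 and 14.98, 13.1, 13.4 and 13.8 FPKM across OGD-R 1 to 4 and fell by 0.55 (SE 0.11; limma adjusted p = 0.0106). LONP1, the mitochondrial protease known to degrade COX4I1 protein in low oxygen, was at 18.7, 17.1, 26.9 and 24.1 FPKM across Controls 1 to 4 and 15.3, 14.2, 13.4 and 13.8 FPKM across OGD-R 1 to 4 and fell by 0.56 (SE 0.15; limma adjusted p = 0.0298). TFB2M, a transcription factor of the mitochondrial genome, fell by 0.42, and PPARGC1B, a coactivator, had a log2 fold change of 0.51 (limma adjusted p = 0.0427 and 0.0367). With 1 library left out, PPRC1 stayed called in 8 of 8 fits and GABPB1 in 7, against 1 for GABPA and 2 each for LONP1, TFB2M and PPARGC1B. With the replicate number as a block, GABPB1 stayed called (limma adjusted p = 0.0452) and PPRC1 did not (limma adjusted p = 0.0584). In that fit GABPA, LONP1, TFB2M and PPARGC1B were not called either (limma adjusted p between 0.0624 and 0.105). Scaled to nuclear genes, LONP1 and TFB2M were no longer called (limma adjusted p = 0.0664 and 0.0515). NRF1, YY1 and TFAM did not pass the test.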

How the data were processed

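RNA sequencing was done on 8 libraries, 4 Control and 4 OGD-R, grouped by their titles; the labels' protocols name an NEBNext and a SMARTer kit. Each library has its own table of gene IDs, symbols and values. The values the authors deposited were read as FPKM, since the unit is not written: low values of 940 single-exon genes gathered at a constant divided by length, with between 11 and 18 values per library within the commonest step, so the implied depth rests on few values. For the aligner, counter, build and annotation the sources used here give no name. As FPKM shares out each library's total, genes that take more of it lower the rest. All 46 member IDs were found in GENCODE 29 (GRCh38), with the same symbols and annotated as protein coding; GENCODE 29 lists 95 pseudogenes with names of these families, and how reads were divided among copies is not known. Any 2 libraries had at most 1 equal value above 0.

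Values were tested as log2(FPKM + 1), which understates changes of low genes, with limma 3.58.1 (R 4.3.3, intensity trend, two-sided) over the 11740 genes averaging 1 FPKM or more, without a block, and adjusted over all of them by Benjamini-Hochberg. The members, lists and named genes were chosen with earlier results of these data known. The naming rule took each member past the threshold, ATP5F1A, the most abundant member of each complex, isoform pairs, ATP5IF1, mitochondrial subunits and called genes of the context lists; others named were chosen after their values were seen. The script was tested on simulated data with independent noise for each gene. Such data lack the split between the Control pairs, so they cannot show how the test behaves under it. Count models were foreseen for counts and not used. Alternatives covered pseudocounts of 0.1 and 5, filters, each library or pair of Controls left out, a block, 2 scalings and the variance trend. Protein sequences are not used here. Figures were drawn with matplotlib 3.10.9 (Python 3.11.15).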

Additional observations from a re-analysis of the deposited data

How the results depend on the processing

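With 1 library left out, members called higher ranged from 0 to 14 (6 with all libraries), with 0 lower in each such fit. By complex they ranged from 0 to 1 in complex III, 0 to 7 in complex IV and 0 to 6 in ATP synthase. Over all genes the same fits gave 711 to 1426 higher and 561 to 1312 lower. Leaving out Control 1 gave 14 members, Control 2 gave 3, OGD-R 1 gave 1 (COX7B), and Control 3, Control 4, OGD-R 2, OGD-R 3 or OGD-R 4 gave 0. Against Controls 1 and 2, 2673 genes were higher and 3807 lower, and of the members 1, 1 and 3 were higher and 3, 1 and 3 lower in complex III, complex IV and ATP synthase (7 lower in all). Against Controls 3 and 4, 4603 genes were higher and 3337 lower, and 36 members were higher (10, 10 and 16). With the replicate block 625 genes were higher, 507 lower and 0 members were called in any complex. Same-numbered libraries correlated at 0.045 to 0.0646 in their deviations from the group means, and not every library correlated best with its own number. Within numbers 1 and 2 or within 3 and 4 the correlations were 0.045 to 0.113, and across these pairs -0.106 to -0.0268. Whether the numbers pair the libraries cannot be told from such weak correlations. Without the filter 2 members were called (0 in complex III, 1 in complex IV, 1 in ATP synthase), and at a mean of at least 5 FPKM 689 genes were higher and 0 of complex III. Without the intensity trend 0 members of complex III were called. Scaled to nuclear genes 11 members were called, 5 of them in complex IV and 5 in ATP synthase. The pseudocounts and the median-ratio scaling left these counts within 1.5 times. The cause of these changes was not tested, beyond the fewer libraries or genes in a fit. Against Controls 1 and 2, 20 members changed sign, with log2 fold changes of ATP5F1A -0.064, ATP5F1B -0.045, ATP5F1C -0.016, ATP5F1D -0.52, ATP5F1E -0.37, ATP5MC1 -0.28, ATP5MC3 -0.032, ATP5MD -0.16, ATP5PB -0.10, CYC1 -0.42, UQCR10 -0.057, UQCR11 -0.14, UQCRB -0.41, UQCRC1 -0.18, UQCRFS1 -0.15, UQCRH -0.14, UQCRQ -0.44, COX5A -0.21, COX7A2 -0.0014 and COX8A -0.13. With 1 library left out, 5 members changed sign in some fits: ATP5F1D ranged from -0.20 to 0.21, ATP5F1E from -0.088 to 0.28, CYC1 from -0.081 to 0.33, UQCRB from -0.044 to 0.38 and COX5A from -0.028 to 0.23. Median-ratio scaling moved ATP5F1D to -0.0031. For low members depth may be a limit, which was not tested. A fragment over 1000 bases stood for up to 0.0592 FPKM if the commonest spacing of the lowest values is 1 fragment.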

Other observations

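Among assembly factors that were not called, PET100, which acts on complex IV, was at 3.27, 2.63, 3.88 and 5.98 FPKM across Controls 1 to 4 and 3.03, 8.35, 9.32 and 7.20 FPKM across OGD-R 1 to 4. OGD-R 1 stood with the Controls while OGD-R 2 to 4 were above all of them, and it was not called (limma adjusted p = 0.196). DMAC2L, a factor linked to ATP synthase, was at 2.92, 3.35, 2.87 and 2.60 FPKM across Controls 1 to 4 and 7.77, 3.25, 3.64 and 3.76 FPKM across OGD-R 1 to 4, with OGD-R 1 far above the other 7 libraries (limma adjusted p = 0.196). COX10, the heme O synthase needed for complex IV, was at 13.8, 16.8, 18.4 and 18.5 FPKM across Controls 1 to 4. It was at 15.4, 14.8, 14.5 and 15.7 FPKM across OGD-R 1 to 4 (limma adjusted p = 0.385). COX19, a copper chaperone of complex IV assembly, was at 4.55, 4.20, 8.91 and 6.95 FPKM across Controls 1 to 4. It was at 4.19, 4.79, 4.50 and 4.65 FPKM across OGD-R 1 to 4 (limma adjusted p = 0.300). Both genes were higher in Controls 3 and 4 than in Controls 1 and 2. C15orf48, which encodes a NDUFA4 relative found in inflamed tissue, was at most 0.268 FPKM in every library. These genes were chosen after their values were seen.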
